A study of Mus musculus with 3 samples.

Results

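The genes examined here encode the machinery of mitosis and chromosome segregation: the kinases and cyclins that start mitosis, the spindle and kinetochore proteins, the checkpoint that delays anaphase, and the proteins that condense chromosomes and divide the cell. A list of 44 such genes was matched by symbol to the probe annotation of a mouse oligonucleotide array, and 40 were found on 43 probes, out of 13697 genes with a usable probe. The 4 members without a probe used here were Ccnb1, Cenpe, Espl1 and Smc4. The arrays measured RNA of E14.5 fetal liver (E counts days of embryonic development), with 1 array for each of 3 genotypes. The first genotype lacked both DNase II and IFN-IR (DNase II-/- and IFN-IR-/-, called double-deficient below), the second was DNase II-deficient, and the third was wild-type. IFN-IR is the label's name for the receptor of type I interferon, and DNase II is the lysosomal enzyme with which macrophages digest DNA of engulfed cells and of expelled erythroblast nuclei. The sources used here do not state how many embryos were pooled per array, nor their strain or sex.

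Most of these genes are transcribed mainly in dividing cells, in G2 and M phase, and their mRNA in a tissue is therefore widely used as a readout of proliferation. In fetal liver at this stage the erythroblasts are the most abundant dividing cells. Transcription of the group is known to be held off in resting cells by the DREAM complex and switched on by B-Myb and FoxM1. Both act at a promoter element called the cell cycle genes homology region (CHR), often with nearby CCAAT boxes that bind the factor NF-Y.

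Promoters of the listed genes are shown before the values. The table of RefSeq promoters (build GRCm38.p6, from 250 bases before to 50 bases after each start site) held 40 windows for 37 of the 44 listed genes. These are not quite the genes measured: Ccnb1, Cenpe and Espl1 had a window but no probe used here. The measured genes Aurkb, Ccna2, Cdc25c, Incenp, Kif20a and Tpx2 had no window. Bub3, Ect2 and Prc1 had more than 1 window, and these overlap. The CHR was searched as TTTGAA or TTCGAA and the NF-Y box as CCAAT, both on either strand. The 5 windows printed are those of the 3 members that were at least 2-fold lower in the DNase II-deficient array (Cdc25b, Kif23 and Mki67), set against wild-type, and of the 2 members with a promoter in the table whose difference was nearest to 0 in that comparison (Ncapd2 and Kif11). They lie at chr2:131186698-131186997 (plus strand, Cdc25b), chr9:61946750-61947049 (minus strand, Kif23), chr7:135716330-135716629 (minus strand, Mki67), chr6:125191537-125191836 (minus strand, Ncapd2) and chr19:37376132-37376431 (plus strand, Kif11). Each is written 5′ to 3′ along the gene's strand, and capitals mark the CHR and CCAAT letters on either strand.
Cdc25b: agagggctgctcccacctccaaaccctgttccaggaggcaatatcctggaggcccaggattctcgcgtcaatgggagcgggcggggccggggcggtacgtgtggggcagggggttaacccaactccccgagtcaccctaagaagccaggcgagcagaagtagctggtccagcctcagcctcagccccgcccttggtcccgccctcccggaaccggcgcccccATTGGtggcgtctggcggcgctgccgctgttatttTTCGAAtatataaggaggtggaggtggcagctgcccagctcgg
Kif23: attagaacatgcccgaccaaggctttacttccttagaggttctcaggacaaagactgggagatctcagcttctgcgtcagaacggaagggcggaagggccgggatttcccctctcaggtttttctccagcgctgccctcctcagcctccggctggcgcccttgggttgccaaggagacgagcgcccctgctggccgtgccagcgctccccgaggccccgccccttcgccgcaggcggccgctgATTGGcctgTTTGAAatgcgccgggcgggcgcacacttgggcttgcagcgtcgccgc
Mki67: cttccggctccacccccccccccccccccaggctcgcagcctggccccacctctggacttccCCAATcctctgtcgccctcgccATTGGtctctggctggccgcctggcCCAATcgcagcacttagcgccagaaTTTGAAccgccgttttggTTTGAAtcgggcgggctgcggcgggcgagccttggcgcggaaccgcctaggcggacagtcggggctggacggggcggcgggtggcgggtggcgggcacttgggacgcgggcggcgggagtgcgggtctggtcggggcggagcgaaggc
Ncapd2: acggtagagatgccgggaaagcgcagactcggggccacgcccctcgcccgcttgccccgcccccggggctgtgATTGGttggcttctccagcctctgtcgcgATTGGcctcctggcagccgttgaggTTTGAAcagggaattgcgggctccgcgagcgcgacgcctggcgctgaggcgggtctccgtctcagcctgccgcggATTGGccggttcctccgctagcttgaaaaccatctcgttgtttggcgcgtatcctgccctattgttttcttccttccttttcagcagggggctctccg
Kif11: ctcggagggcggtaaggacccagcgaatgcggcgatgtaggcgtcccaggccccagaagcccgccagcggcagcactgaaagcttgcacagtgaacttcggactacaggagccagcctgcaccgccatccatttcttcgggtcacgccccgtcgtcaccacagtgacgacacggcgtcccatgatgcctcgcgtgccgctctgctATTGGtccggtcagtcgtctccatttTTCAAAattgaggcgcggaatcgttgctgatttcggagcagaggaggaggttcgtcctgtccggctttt
All 5 windows held both elements. In Cdc25b the CHR match began 8 bases and in Kif23 3 bases downstream of the annotated start, whereas the matches of Mki67 began 116 and 98 bases upstream. Kif11 and Ncapd2, whose levels as deposited hardly differed in that comparison, carried the elements too.

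Across the listed genes, 33 of 40 windows (82.5%) held a CHR match, against 14.6% of 8676 windows of genes compared on the arrays and 19.2% of all 32851 windows. By gene, these were 30 of 37. A CCAAT box was present in 34 of 40 windows (85%), against 37.6% for the genes compared, and both elements together in 31 (77.5%), against 5.87%. Motifs of E2F, the factor of S-phase genes, spelled TTTGGCGC or TTTCCCGC and searched on both strands, were seen in 1 window (2.5%), that of Ncapd2, against 2.82%. In the promoters of DNA replication genes the balance was the other way: 15.9% of 44 windows had a CHR match and 22.7% an E2F match. Among 84 windows of other mitosis genes, chosen as a separate list, 32.1% had a CHR match. The matches were not spread evenly over the windows. Of the 40 windows of the listed genes, 13 (32.5%) had a CHR match starting within the 25 bases after the start site, against 1.01% of the windows of genes compared, and 15 (37.5%) had a CCAAT box starting in the bin that opens 75 bases upstream, against 8.34%.

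**Figure D1:**
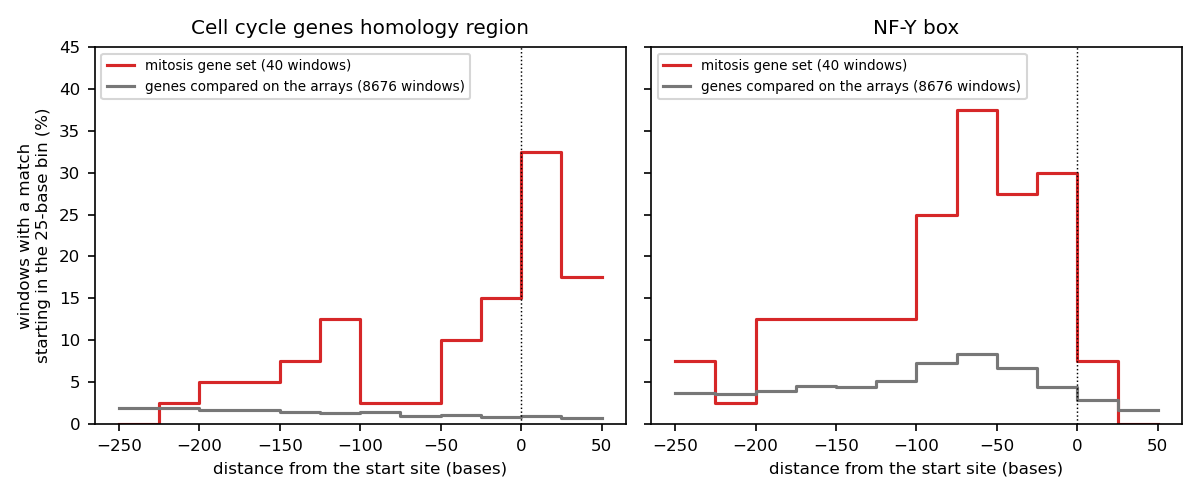
Share of promoter windows (y axis, percent) with a match that starts in each 25-base bin, by distance from the start site in bases (x axis), for the mitosis gene set (red, 40 windows) and for the genes compared on the arrays (grey, 8676 windows). The CHR share of the mitosis genes is highest just after the start site (32.5%) and that of the NF-Y box in the bin from 75 bases upstream (37.5%), while the grey lines stay at or below 8.34%.

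Members with and without a match overlapped in their differences. In the DNase II-deficient array, set against wild-type, the 28 compared members with a CHR match had a median log2 difference of -0.43 and the 5 with a promoter but no match had -0.70. Over all genes compared, those with and without a CHR match had medians of -0.21 and -0.21. A CHR and a CCAAT match shared bases in 1 of the 40 windows, and an E2F match shared none with either. A match is a run of letters in the window and was not tested for binding.

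Some facts of the arrays bear on every value. The deposited values are normalised intensities on a linear scale with medians of 0.964 in the double-deficient, 0.959 in the DNase II-deficient and 0.958 in the wild-type array, so each level is relative to a typical probe of its array. A level of 1 is therefore about that of the median probe, and levels of different genes cannot be ranked because probes differ in brightness. The Dnase2a probe read 39.7 in the double-deficient, 48.6 in the DNase II-deficient and 40.4 in the wild-type array, and the Ifnar1 probe, for a chain of the interferon receptor, read 3.17 in the double-deficient, 4.66 in the DNase II-deficient and 3.60 in the wild-type array. Neither probe was near the floor in the arrays labelled deficient in DNase II or IFN-IR, and the label does not name the receptor chain deleted. The probe of the other chain, Ifnar2, was below the array medians. It read 0.483 in the double-deficient, 0.485 in the DNase II-deficient and 0.574 in the wild-type array. Whether the probes cover the deleted exons is not known here, so they check nothing and the genotypes rest on the labels. Where no other array is named, a difference or fold of a mutant array is taken against wild-type. With 1 array per genotype no difference has a replicate check and none carries a test. As a guide to noise, the spread of the log2 difference among the 500 genes of most similar level (a scaled median absolute deviation) is given in places, which describes these arrays and not replicates.

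The comparison of DNase II-deficient with wild-type liver asks what the absence of the enzyme alters. A gene entered a comparison where its level exceeded the median probe of either array, which held for 39 of the 40. Bub1 was too dim, and Kif23 passed through the wild-type array alone. Most of the 39 were lower in the DNase II-deficient array, by a modest amount. The log2 difference was below 0 for 36 of 39 members (92.3%), against 65.7% of the 8383 genes compared, and the median was -0.58, against -0.21 for all genes compared, a shift of -0.38 relative to them. The count below 0 was 31 after quantile normalisation or centring and 28 after cyclic loess. Few of these differences were large. Only Cdc25b, Mki67 and Kif23 were at least 2-fold lower, 3 of 39 (7.69%), where 6.17% of all genes compared were, and none was 2-fold higher, against 7.67%. The 2-fold count is thus near the background, while the shift of the whole group shows at smaller folds. At least 1.5-fold lower were 19 of 39 (48.7%), against 20.2%, and 0 were 1.5-fold higher, against 13.3%. Among the 25% of all genes with the lowest differences were 21 of the 39 (53.8%). The 1.5-fold count depended on the scaling of the arrays: it was 11 after quantile normalisation, 10 after centring on the median of all genes and 8 after cyclic loess, whereas 21 members after quantile normalisation and 22 after cyclic loess were among the lowest 25% of genes. Centring cannot alter that rank. The shares of all genes, 20.2% and 65.7%, hold for the values as deposited and were not recomputed under the other scalings. The median of all genes compared was -0.07 after quantile normalisation and 0.03 after cyclic loess. The rescaled counts at 1.5-fold and below 0 therefore cannot be set against these shares. Fewer dividing cells and less of each mRNA per cell cannot be told apart in RNA of a whole organ.

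The comparison of double-deficient with wild-type liver asks what remains altered without the interferon receptor. The members were closer to wild-type here. Their median log2 difference was -0.29, against -0.08 over 8158 genes compared, and 33 of 39 were below 0 (84.6%), against 61.1%. None was 2-fold lower or higher, against 0.735% and 2.05% of all genes, and 2, Cdca3 and Incenp, were at least 1.5-fold lower (5.13%), against 4.85%, and 0 higher, against 4.89%. Small as they were, the differences ranked low: 22 of 39 (56.4%) were among the lowest 25% of genes. All genes also varied less between these arrays, with a median spread of 0.255 among genes of the members' levels, against 0.433 when DNase II-deficient was set against wild-type.

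The comparison of the double-deficient with the DNase II-deficient array asks what the receptor's loss adds where DNase II is missing too. The median of the 39 members was 0.33, against 0.11 over 8303 genes, and 34 of 39 (87.2%) were above 0, against 60.9%. Cenpf and Cdc25b were at least 2-fold higher (5.13% of the members), against 3.11% of all genes, and 5 were at least 1.5-fold higher (12.8%), against 12.5%, so that these counts are near the background. Of the 5, Kif23 passed the level filter through the double-deficient array alone, where it was high. None of the 39 members was 2-fold or 1.5-fold lower, against 4.85% and 10% of all genes. The 2-fold count was 0 after quantile normalisation, centring or cyclic loess. Among the highest 25% of genes were 17 of 39 (43.6%). These 3 comparisons share arrays, so that 1 unusual array would enter 2 of them. By array, the lowest of the 3 values came from the DNase II-deficient array in 32 of 39 members (82.1%), against 55.2% of 8462 genes above the median in any array. The highest came from the wild-type array in 32 of 39 (82.1%), against 49.2%. The double-deficient array was highest for 6 members, against 22.4% of all genes, and lowest for 5, against 21.2%. The wild-type array was lowest for 2, Anln and Bub1b, against 23.6%, and the DNase II-deficient array highest for Ncapd2 alone, against 28.4%.

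**Figure D2:**
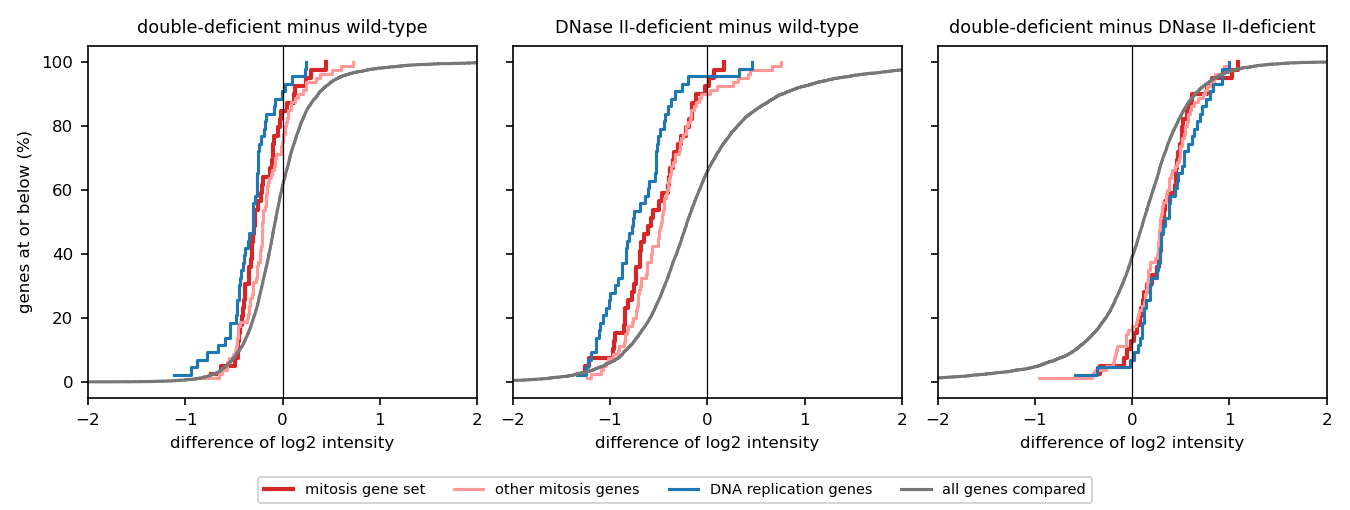
Cumulative share of genes (y axis, percent) at or below each difference of log2 intensity (x axis) in the 3 comparisons, for the mitosis gene set (red), other mitosis genes (pink), DNA replication genes (blue) and all genes compared (grey). In the middle panel the red line lies left of the grey one, with medians of -0.58 and -0.21, and in the right panel it lies right of it, with medians of 0.33 and 0.11.

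Genes of mitotic entry held the largest single difference. CDK1 bound to a B-type cyclin is the kinase that drives a cell into mitosis, and the CDC25 phosphatases switch it on by removing inhibitory phosphates. Cdc25b read 22.6 in the double-deficient, 11.1 in the DNase II-deficient and 27.8 in the wild-type array. It was 2.51-fold lower in the DNase II-deficient than in the wild-type array, a log2 difference of -1.33 with a spread of 0.459 among genes of like level, and 2.03-fold higher in the double-deficient than in the DNase II-deficient array. Its relative Cdc25c read 3.01 in the double-deficient, 2.21 in the DNase II-deficient and 3.78 in the wild-type array. Ccnb2, a B-type cyclin, read 67.0 in the double-deficient, 52.8 in the DNase II-deficient and 89.3 in the wild-type array. The levels of all 3 genes were lowest in the DNase II-deficient array and intermediate in the double-deficient array. Ccna2, the cyclin that acts from S phase to early mitosis, read 66.9 in the double-deficient, 54.3 in the DNase II-deficient and 87.9 in the wild-type array. Cdk1 itself differed less, at 70.4 in the double-deficient, 66.4 in the DNase II-deficient and 82.0 in the wild-type array, with a log2 difference of -0.30 in the DNase II-deficient array, inside the spread of 0.404. All 5 measured genes of this group were thus below wild-type in both mutant arrays, with medians of -0.76 in the DNase II-deficient and -0.33 in the double-deficient array, although the Cdk1 difference in the DNase II-deficient array was 0.03 under cyclic loess.

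The mitotic kinases and the passenger complex followed. Plk1, which matures centrosomes and primes many mitotic proteins, read 4.62 in the double-deficient, 3.33 in the DNase II-deficient and 4.90 in the wild-type array. Aurka, the spindle pole kinase, read 19.7 in the double-deficient, 15.7 in the DNase II-deficient and 20.0 in the wild-type array. The double-deficient and wild-type values of these kinases were nearly equal, with log2 differences of -0.09 and -0.02. Nek2, which helps to part the centrosomes, was lower in both mutants, at 4.53 in the double-deficient and 3.94 in the DNase II-deficient array, against 6.37 in wild-type. The chromosomal passenger complex corrects faulty attachments of chromosomes to the spindle and consists of the kinase Aurora B (Aurkb), Incenp, survivin (Birc5) and borealin (Cdca8). Birc5 read 125 in the double-deficient, 87.5 in the DNase II-deficient and 159 in the wild-type array, 1.81-fold lower in the DNase II-deficient array. Aurkb was 1.66-fold lower there, at 5.90 in the double-deficient, 4.35 in the DNase II-deficient and 7.21 in the wild-type array. The subunits of the complex did not share 1 pattern. Incenp read 4.26 in the double-deficient and 4.19 in the DNase II-deficient array, against 6.59 in wild-type, with nearly equal levels in the mutants. Cdca8 read 53.34 in the double-deficient, 38.8 in the DNase II-deficient and 45.01 in the wild-type array, highest in the double mutant. Its difference in the DNase II-deficient array, -0.21 as deposited, was 0.05 after quantile normalisation and 0.11 after cyclic loess.

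**Figure D3:**
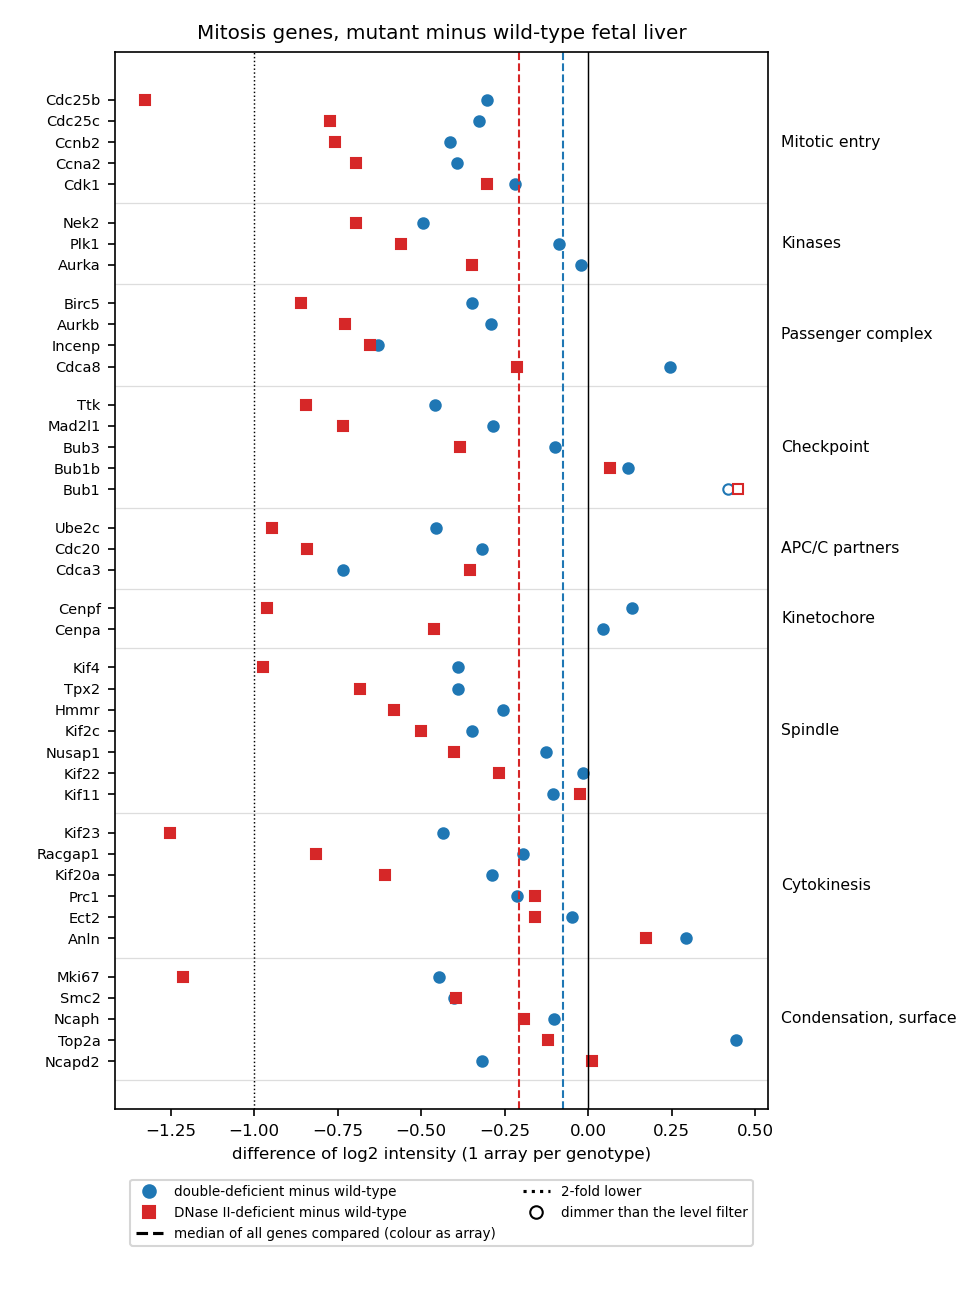
Difference of log2 intensity from wild-type (x axis) for each of the 40 genes (rows, grouped by role), in the double-deficient array (blue circles) and the DNase II-deficient array (red squares), 1 array per genotype, so there are no error bars. Dashed lines give the median of all genes compared (-0.08 and -0.21), the dotted line marks 2-fold lower, and open symbols mark Bub1, which was dimmer than the level filter. Cdc25b, Kif23 and Mki67 lie beyond the dotted line in the DNase II-deficient array.

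The spindle assembly checkpoint, which holds back anaphase until every kinetochore is attached, was divided. Ttk, the kinase at its head (also called MPS1), read 5.821 in the double-deficient, 4.453 in the DNase II-deficient and 8.003 in the wild-type array. Mad2l1, which encodes the inhibitor MAD2, read 42.7 in the double-deficient, 31.2 in the DNase II-deficient and 52.0 in the wild-type array. These were 1.80-fold and 1.66-fold lower in the DNase II-deficient array. Bub3, the partner that brings BUB1 and BUBR1 to kinetochores, was nearer, at 38.1 in the double-deficient, 31.3 in the DNase II-deficient and 40.8 in the wild-type array. Bub1b, encoding BUBR1, read 4.01 in the double-deficient and 3.86 in the DNase II-deficient array, against 3.69 in wild-type, and was among the 3 members not below wild-type in the DNase II-deficient array. Its kinase relative Bub1 had 2 probes, both dimmer than the array medians: the brighter read 0.9358 in the double-deficient and 0.9563 in the DNase II-deficient array, against 0.7003 in wild-type, and the dimmer read 0.482 in the double-deficient and 0.579 in the DNase II-deficient array, against 0.575 in wild-type. The log2 differences of these probes in the DNase II-deficient array, 0.45 and 0.01, do not tell a direction for Bub1.

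Partners of the anaphase-promoting complex (APC/C), the ubiquitin ligase whose activity ends mitosis, stood on the lower side. Ube2c, its ubiquitin-conjugating enzyme, read 137 in the double-deficient, 97.5 in the DNase II-deficient and 188 in the wild-type array, 1.93-fold lower in the DNase II-deficient array. Cdc20, its activator at anaphase, read 24.3 in the double-deficient, 16.9 in the DNase II-deficient and 30.3 in the wild-type array. Cdc20 was 1.79-fold lower in the DNase II-deficient array. Cdca3, a protein that the complex degrades and that promotes mitotic entry, went otherwise. It read 9.60 in the double-deficient and 12.5 in the DNase II-deficient array, against 16.0 in wild-type, so that the double mutant was lowest, 1.66-fold below wild-type with a spread of 0.263 against a log2 difference of -0.74.

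At the kinetochore, Cenpf, a large protein that loads onto kinetochores in G2, had the largest difference between the mutant arrays. It read 15.9 in the double-deficient, 7.48 in the DNase II-deficient and 14.6 in the wild-type array, 2.13-fold higher in the double-deficient than in the DNase II-deficient array. Cenpa, the histone H3 variant that marks centromeres, read 43.5 in the double-deficient, 30.6 in the DNase II-deficient and 42.2 in the wild-type array. For both genes the DNase II-deficient array was lowest. Its log2 differences from wild-type were -0.96 for Cenpf and -0.46 for Cenpa, with spreads of 0.428 and 0.393. The Cenpa difference was -0.205 after quantile normalisation, smaller than that spread. The double-deficient and wild-type values of Cenpf and Cenpa differed by 0.13 and 0.05 on the log2 scale, inside the spreads of 0.234 and 0.255.

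Spindle motors and microtubule-binding proteins ranged from near 2-fold lower to equal. Kif4, a chromosome-bound kinesin, read 5.995 in the double-deficient, 4.001 in the DNase II-deficient and 7.845 in the wild-type array, 1.96-fold lower in the DNase II-deficient array. Tpx2, the activator of Aurora A on spindle microtubules, read 25.1 in the double-deficient, 20.5 in the DNase II-deficient and 32.9 in the wild-type array. Hmmr, a microtubule-binding protein of spindle poles, read 18.5 in the double-deficient, 14.8 in the DNase II-deficient and 22.1 in the wild-type array. All 3 were lowest in the DNase II-deficient array and highest in wild-type. Kif2c, a kinesin that takes microtubules apart, and Nusap1, which bundles them near chromosomes, had log2 differences in the DNase II-deficient array of -0.50 and -0.40. Kif22, the chromokinesin Kid, was at -0.27, and under quantile normalisation and cyclic loess at 0.003 and 0.063. Kif11, the motor Eg5 that pushes the spindle poles apart, was level as deposited, at 19.4 in the double-deficient, 20.6 in the DNase II-deficient and 20.9 in the wild-type array. In the DNase II-deficient array its difference of -0.02 was between 0.108 and 0.272 under the 4 other scalings.

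**Figure D4:**
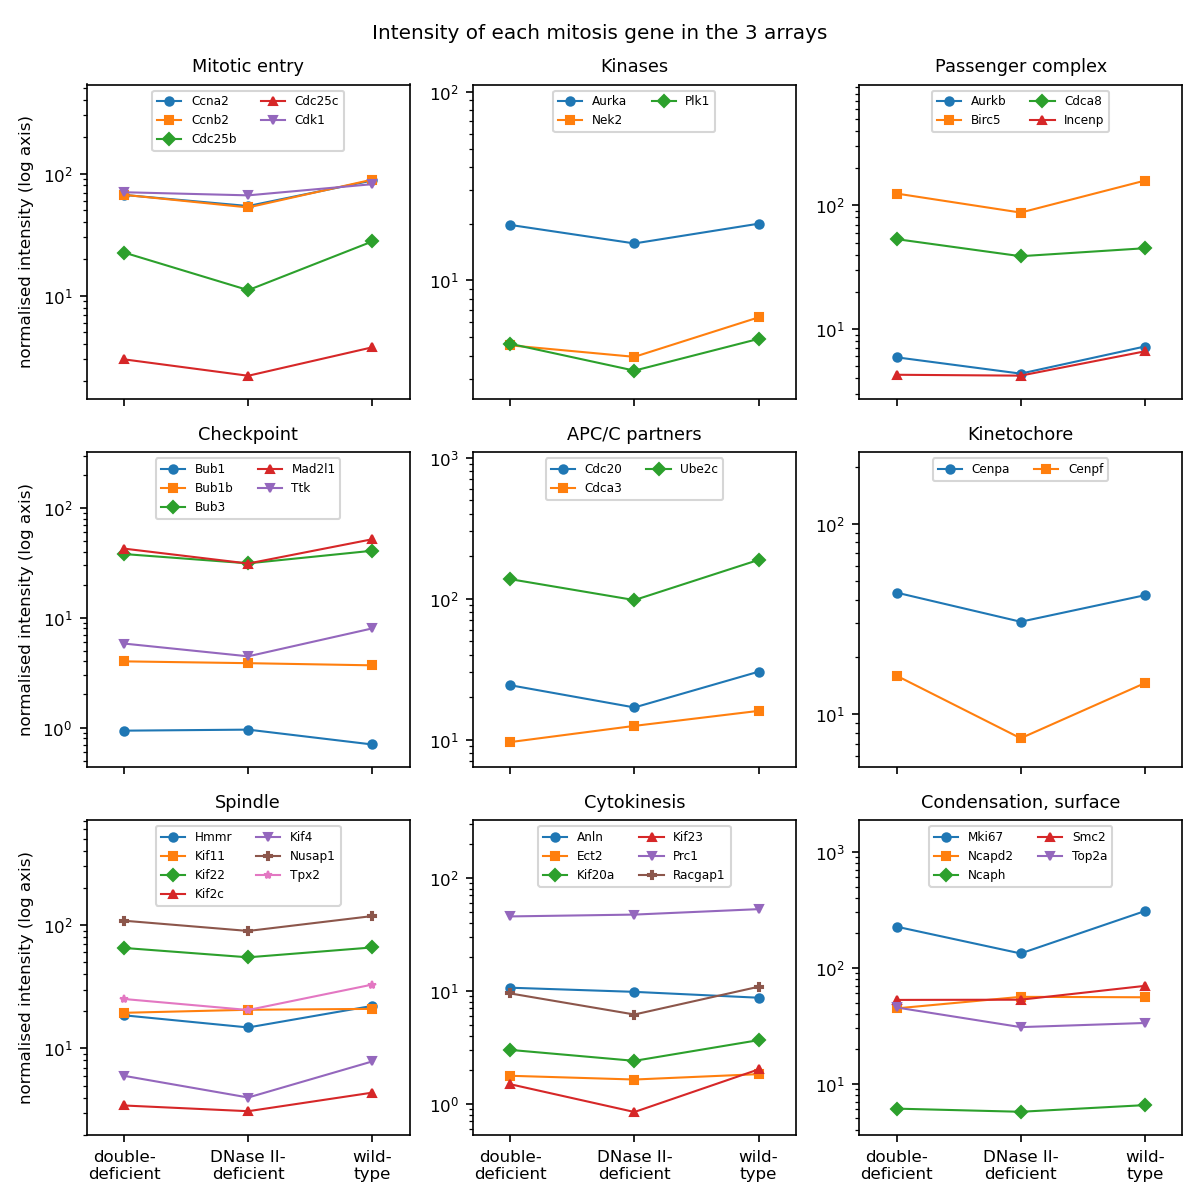
Normalised intensity (y axis, log scale) of each of the 40 genes in the double-deficient, DNase II-deficient and wild-type arrays (x axis), 1 panel per role and 1 array per genotype. Most lines dip in the middle, as for Cdc25b (11.1) and Cenpf (7.48), while Kif11, Bub1b and Anln do not. Lines of different genes are not comparable in height.

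Genes of the central spindle and of cytokinesis split into low and level members. Kif23, the kinesin subunit of centralspindlin, read 1.49 in the double-deficient, 0.846 in the DNase II-deficient and 2.02 in the wild-type array. It was 2.38-fold lower in the DNase II-deficient array, but its level there was below the array median. Racgap1, the other subunit of centralspindlin, read 9.49 in the double-deficient, 6.17 in the DNase II-deficient and 10.9 in the wild-type array, 1.76-fold lower in the DNase II-deficient array. Kif20a, which carries the passenger complex to the central spindle, read 3.001 in the double-deficient, 2.401 in the DNase II-deficient and 3.661 in the wild-type array. So both subunits of centralspindlin and this motor were lowest in the DNase II-deficient array. Prc1, which bundles the midzone microtubules, read 45.6 in the double-deficient and 47.3 in the DNase II-deficient array, against 52.9 in wild-type. Ect2, the exchange factor that activates RhoA at the cleavage site, read 1.77 in the double-deficient and 1.64 in the DNase II-deficient array, against 1.83 in wild-type. Neither difference exceeded the spread among genes of like level, and in the DNase II-deficient array both were above 0 after centring or cyclic loess. Anln, the scaffold anillin of the contractile ring, had a probe at 10.7 in the double-deficient and 9.80 in the DNase II-deficient array, against 8.69 in wild-type. Its other probe was at or near the floor, at 0.194 in the double-deficient and 0.144 in the DNase II-deficient array, against 0.263 in wild-type, and was lower in both mutants.

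Genes of chromosome condensation and of the chromosome surface had the role median nearest to wild-type in the DNase II-deficient array, at -0.19, although the proliferation marker Mki67 belongs to them. Mki67 encodes Ki-67, the protein that coats mitotic chromosomes and is stained to count cycling cells. It read 226 in the double-deficient, 133 in the DNase II-deficient and 307 in the wild-type array, 2.32-fold lower in the DNase II-deficient array, with a log2 difference of -1.21 and a spread of 0.39. In the double-deficient array it was 1.36-fold below wild-type. Condensin shapes mitotic chromosomes and was represented by Smc2, Ncapd2 and Ncaph. Smc2, one of its ATPase arms, read 52.7 in the double-deficient and 52.9 in the DNase II-deficient array, against 69.6 in wild-type, and its second probe was also lower in both mutants. Ncapd2 read 44.5 in the double-deficient and 56.0 in the DNase II-deficient array, against 55.5 in wild-type. Ncaph, the subunit that bridges the arms, read 6.08 in the double-deficient and 5.71 in the DNase II-deficient array, against 6.52 in wild-type, a difference in the DNase II-deficient array of -0.19 that was 0.015 after centring and 0.045 after cyclic loess. The condensin genes thus had no common pattern. Top2a, the topoisomerase that untangles sister chromatids, read 45.3 in the double-deficient, 30.7 in the DNase II-deficient and 33.3 in the wild-type array, and was the member furthest above wild-type in the double mutant, by 0.44 on the log2 scale with a spread of 0.233. In the DNase II-deficient array its difference of -0.12 was between 0.013 and 0.195 under the 4 other scalings.

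Other genes of mitosis, on a list kept apart from the 44, were at similar differences. Of 83 on the array, 80 were compared between the DNase II-deficient array and wild-type. Their median log2 difference was -0.47, 6 (7.5%) were at least 2-fold lower, against 6.17% of all genes, and 0 higher, against 7.67%, and 30 (37.5%) were at least 1.5-fold lower, beside 20.2% of all genes. The largest were Cit, a kinase of the midbody, at 2.35-fold lower, and Zw10, a kinetochore protein of the checkpoint, at 2.29-fold lower. Of the 6, Ncapg2 passed the level filter through the wild-type array alone, at 1.735 there and 0.8146 in the DNase II-deficient array. The median of this list was -0.21 in the double-deficient array against wild-type and 0.29 between the mutant arrays. Pttg1, which encodes securin, the inhibitor of separase, was an exception, at -0.96 between the mutant arrays. DNA replication genes, active in S phase, were further below wild-type than the mitosis genes, with a median of -0.76 in the DNase II-deficient array and 12 of 43 (27.9%) at least 2-fold lower, against 6.17% of all genes. In the double-deficient array their median was -0.31.

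Regulators of the group were examined next. Among 16 compared transcription factors of the cell cycle the median in the DNase II-deficient array was -0.54, with 2 at least 2-fold lower (12.5%), against 6.17% of all genes. Those were E2f4, an E2F subunit of the DREAM complex, and Mybl2, which encodes B-Myb. E2f4 read 30.2 in the double-deficient, 13.6 in the DNase II-deficient and 31.7 in the wild-type array, and Mybl2 read 16.5 in the double-deficient, 9.34 in the DNase II-deficient and 19.2 in the wild-type array. Foxm1 did not have that pattern, at 1.18 in the double-deficient and 1.51 in the DNase II-deficient array, against 1.57 in wild-type. Cdkn1a, encoding the CDK inhibitor p21, went the opposite way from the mitosis genes. It read 1.45 in the double-deficient, 4.65 in the DNase II-deficient and 0.551 in the wild-type array, 8.43-fold higher in the DNase II-deficient array and 2.63-fold higher in the double mutant. Its wild-type level was below the array median, so that it entered these comparisons through the mutant arrays alone. The other inhibitor genes compared, Cdkn2c (p18) and Cdkn1c, were lower in the DNase II-deficient array, by log2 differences of -1.54 and -0.67. In the double-deficient array these differences were -0.65 and -0.68. The 7 compared G1 cyclins and CDKs had a median of -0.08 in the DNase II-deficient array. Of these, 2 were at least 2-fold lower, Ccne1 and Ccne2 (28.6%), against 6.17% of all genes. At least 2-fold higher was 1, Cdc25a (14.3%), against 7.67%. Ccne1, the G1 cyclin E1, read 12.7 in the double-deficient, 6.25 in the DNase II-deficient and 17.8 in the wild-type array, and Cdc25a, an activator of G1 and S phase CDKs, read 1.71 in the double-deficient, 2.51 in the DNase II-deficient and 1.22 in the wild-type array.

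Of the marker lists for the organ's cell types, the erythroid one lay lower in the DNase II-deficient array, as the mitosis genes did, and the granulocyte one lay higher. Of 18 erythroid markers on the array, 11 (61.1%) were at least 2-fold lower in the DNase II-deficient array, against 6.17% of all genes. There, 0 were 2-fold higher, against 7.67%, and 1 was at least 1.5-fold higher (5.56%), against 13.3%. The median was -1.25. None of these 18 was 2-fold lower in the double-deficient array, against 0.735% of all genes, with a median of -0.21. Their summed intensity was 2170 in the double-deficient, 1679 in the DNase II-deficient and 2435 in the wild-type array, a sum held mostly by the globin probes Hba-a1 and Hbb-bt, which are named after their values were seen and read 632 and 1032 in wild-type. The summed intensity of the 40 mitosis genes was 1461 in the double-deficient, 1134 in the DNase II-deficient and 1760 in the wild-type array. Granulocyte markers were higher in both mutants, with 8 of 8 compared at least 2-fold higher in the DNase II-deficient array, against 7.67% of all genes. Their summed intensity was 632 in the double-deficient and 786 in the DNase II-deficient array, against 276 in wild-type. Hepatocyte markers summed to 2999 in the double-deficient, 3516 in the DNase II-deficient and 3323 in the wild-type array, with none of 9 compared 2-fold different in either mutant. Macrophage markers summed to 175 in the double-deficient, 166 in the DNase II-deficient and 171 in the wild-type array, a sum that does not show single markers. Of 9 compared, 3 were at least 2-fold lower in the double-deficient array and 0 higher, against 0.735% and 2.05% of all genes. In the DNase II-deficient array 3 were at least 2-fold lower and 1 higher, against 6.17% and 7.67%. The lower ones were Cd5l, Marco and Clec4f. Of the 9, 4 (44.4%) were above 0 in the DNase II-deficient array, against 34.3% of all genes. In the double-deficient array 5 (55.6%) were, against 38.9%, some of them barely. Lyz2 and C1qb had log2 differences of 1.085 and 0.832 in the DNase II-deficient array. In the double-deficient array these were 0.958 and 0.917. Cd5l read 4.10 in the double-deficient, 3.41 in the DNase II-deficient and 30.6 in the wild-type array. Clec4f was at the floor in the double-deficient array. It exceeded the array median in wild-type alone, at 1.27, so it entered both counts through the array where it was high. No marker of these lists was at the floor in all 3 arrays. Lists of stem and progenitor markers (4 compared) and megakaryocyte markers (5 compared) had medians of 0.16 and -0.12 in the DNase II-deficient array. Housekeeping genes had a median of -0.25 as deposited and 0.13 after cyclic loess, with none of 9 compared 2-fold different. The part of these shifts in the differences of the mitosis genes was not tested.

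**Figure D5:**
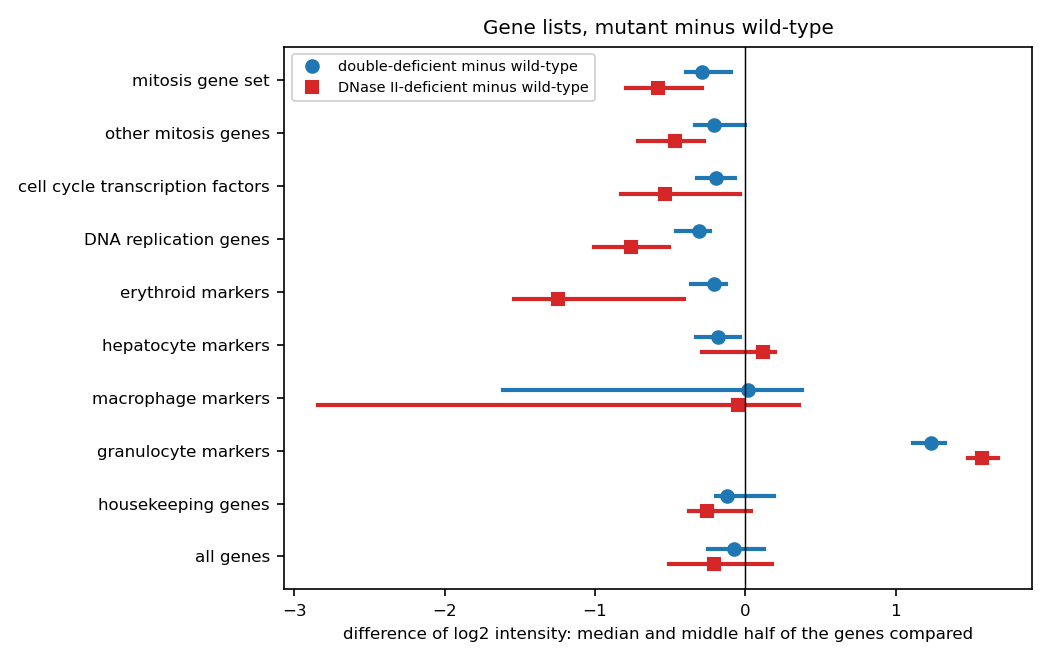
Median (symbol) and spread of the genes compared (bar, the 25th to 75th percentile over genes, not an error of replicates) of the difference of log2 intensity from wild-type (x axis) for each gene list (rows), in the double-deficient array (blue circles) and the DNase II-deficient array (red squares). The mitosis gene set lies at -0.29 and -0.58, between the medians of all genes (-0.08 and -0.21) and, in the DNase II-deficient array, those of DNA replication genes (-0.76) and erythroid markers (-1.25).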

How the data were processed

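RNA of E14.5 fetal liver was measured on 3 single-colour CodeLink Mouse 20K arrays, 1 per genotype. Biotin-labelled cRNA made from poly(A) RNA was hybridised and detected with streptavidin-Cy5, and, per the labels' protocols, CodeLink System Software read the images. The sources do not give its version or how it corrected background and normalised. The deposited values are linear normalised intensity, already near a common median, which hides any difference in total RNA.

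Of 20289 probes, 125 lacked a value and were left out. The platform annotation, which can be old, gave 1 gene symbol to 15120 probes, several to 38 and none to 5131, and 0 symbols needed an update through the reference table. The brightest probe (mean log2) stood for a gene. Values below an array's 25th percentile were set to it and log2 transformed, and differences were taken between arrays for genes brighter than the median probe of either array. No member's chosen probe was at the floor. No test was possible with 1 array per genotype, and the number of arrays limits the precision.

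The members and the gene lists were chosen with earlier results of these data known. Any member could be named. Of other lists, genes were named from the 6 largest differences per comparison, plus Cdkn1a, Foxm1, Mybl2, E2f4 and Ccne1. The counts at 1.5-fold, by sign, by rank and by lowest array were added with the values already known. Quantile and loess scaling used limma 3.58.1 in R 4.3.3, and the rest Python 3.11.15. Promoters came from RefSeq (GRCm38.p6).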

Additional observations from a re-analysis of the deposited data

How the results depend on the processing

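The members' medians, main counts and single differences, and the medians of some other lists, were recomputed under 9 alternatives. These were floors at the array median and at the 10th percentile, no level filter, and a filter at the 75th percentile. The others were quantile, 75th percentile and cyclic loess scaling, centring on the median of all genes, and the mean over a gene's probes. Single genes outside the members, fold counts of the other lists, counts by highest array and promoter shares were not recomputed. The median of all genes compared in the DNase II-deficient array was -0.21 as deposited but -0.07 after quantile or 75th percentile scaling and 0.03 after cyclic loess. Higher genes made up 55.4% of all 2-fold calls as deposited and 65.8%, 67.1%, 74.2% and 73.6% under quantile, 75th percentile, loess and centred values. Between the mutant arrays that share was 39% as deposited, and 31.7%, 30.4%, 23.9% and 26.8% under the same. The members' median in the DNase II-deficient array was -0.42 with quantile, -0.45 with 75th percentile, -0.35 with loess scaling and -0.38 after centring, against -0.58 as deposited, and kept its sign under all 9. Relative to the median of all genes it was -0.38 as deposited and between -0.53 and -0.34 otherwise. The count at least 1.5-fold lower was 11, 8 and 10 with quantile, loess and centring, where the share of all genes was not recomputed. The members' median in the double-deficient array stayed between -0.29 and -0.20, and their 1.5-fold lower count there was 1, in place of 2, with each of the 4 scalings. Between the mutant arrays the members' median of 0.33 was 0.20, 0.14 and 0.21 with quantile, loess and centring. There, 2-fold higher members numbered 0 with quantile, 0 with loess, 0 with centring and 1 with 75th percentile scaling, and 3 were 1.5-fold higher with loess. The 2-fold lower count in the DNase II-deficient array was 2 or 3 throughout, and members among the lowest 25% of genes numbered 17 to 23. Members below 0 numbered 28 to 37 in the DNase II-deficient and 27 to 34 in the double-deficient array, and 25 (under the stricter filter, which compares fewer genes) to 34 were above 0 between the mutants. Members lowest in the DNase II-deficient array numbered 25 to 33 (25 with loess), a count not taken after centring.

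Among single members, signs changed only for small differences, at most 0.30 in size: 9 genes in the DNase II-deficient array, 7 in the double-deficient array and 6 between the mutants. Anln turned to -0.28 and -0.07 in the mutants against wild-type when its dim probe was averaged in. Medians of lists near 0 were unstable. For macrophage markers in the DNase II-deficient array the value of -0.05 became 0.013 without a filter, 0.281 with the stricter filter, and 0.004, 0.087, 0.121 and 0.161 with quantile, 75th percentile, loess and centred values. For housekeeping genes it became 0.131 with loess, and in the double-deficient array, where it was -0.12, 0.006 with quantile and 0.021 with loess scaling. No paired analysis was possible because each genotype has 1 array, and for the same reason no array could be left out. Dim probes limit Bub1 and Kif23 most.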
